A study of Homo sapiens with 10 samples.

Results

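The genes described here are 10 genes of cysteine and glutathione supply, chosen by name as the rows of the gene count table for CTH, CBS, CHAC1, CHAC2, GGCT, GSS, GSR, GSTO1, GSTO2 and MGST1. They are 10 of 57353 gene symbols in the table, and all 10 were among the 17230 genes that passed the filter on low counts. Cysteine is the limiting building block of glutathione, the main thiol antioxidant of the cell. It is imported as cystine or made from methionine by transsulfuration, in which CBS condenses homocysteine with serine to cystathionine and CTH cleaves cystathionine to cysteine. Glutamate-cysteine ligase (GCLC and GCLM) and glutathione synthetase (GSS) then build glutathione, glutathione reductase (GSR) reduces its oxidized form, and glutathione transferases (GSTO1, GSTO2, MGST1) use it on other molecules. CHAC1 and CHAC2 break glutathione down inside the cell to 5-oxoproline and cysteinyl-glycine, and GGCT frees 5-oxoproline from other gamma-glutamyl peptides.

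Gene expression was measured by RNA sequencing in LNCaP-C4-2, a castration-resistant line derived from the LNCaP prostate cancer line. Cells carried a control shRNA that targets no gene (NT, 2 samples) or an shRNA against CPT1A (KD, 3 samples), both from lentivirus and selected with puromycin. Other cells carried an empty lentiviral vector (EV, 2 samples) or the CPT1A cDNA in a lentivirus (OE, 3 samples), both selected with blasticidin. CPT1A is the outer mitochondrial membrane enzyme that commits long-chain fatty acids to oxidation, and the study asked which genes follow its level. The knockdown rests on 1 shRNA and each group on 1 transduced line, and nothing says that the replicates are separate cultures, so p-values measure the spread between these samples, which may be technical. Vector, drug and transduction differ between the NT and KD lines on one side and the EV and OE lines on the other, and the vector backgrounds cannot be told apart from other differences between the controls.

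Libraries held 23555205 to 28615770 counts. CPT1A was at 265 and 262 CPM (counts scaled to a common library size by the TMM method) in NT, 81.2 to 86.4 in KD, 326 and 318 in EV and 861 to 914 in OE, in the order of the labels. The 7 luminal prostate markers, all detected, summed to 5364 to 5632 CPM in NT, 7227 to 7965 in KD, 7049 to 7354 in EV and 9914 to 10286 in OE. The 10 markers of leukocytes, endothelium, fibroblasts and basal epithelium summed to 17.0 to 17.5, 23.4 to 25.5, 15.6 to 16.8 and 20.6 to 23.01 CPM in the same order, nearly all of it from VWF and COL1A1, with PECAM1, COL1A2 and KRT5 at 0 in all 10 libraries. Both sums were higher in KD and OE than in their controls. KLK3 carried most of the luminal rise, from a mean of 2466 CPM in NT to 4442 in KD and from 3412 in EV to 5811 in OE, while FOLH1 was lower in both lines (log2 fold changes -0.55 and -0.14, adjusted p = 7.15e-10 and 0.0182) and TMPRSS2 was lower in OE (-0.16, adjusted p = 0.0138). These markers moved with the groups, and their part in the results was not tested. KD 2 stood apart from the other KD libraries, where the chi-square for each degree of freedom was 7.13 and 7.28 against KD 1 and KD 3 and 2.35 between those. OE 2 stood apart in the same way, with 4.05 and 4.69 against OE 1 and OE 3 and 2.23 between those. Levels here are RNA per library, in which fewer cells of a kind and less RNA per cell cannot be told apart.

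Sequences upstream of the start sites were read for 7 of the 10 genes from RefSeq (GRCh38.p14), to set letters beside the genes that moved together. The window was 300 bases, from 250 before the start to 50 after it, and 3 motifs were searched on both strands. They were the C/EBP-ATF response element that ATF4 binds (CARE, TGATGNAA), the antioxidant response element (ARE, TGACNNNGC) and the cAMP response element (CRE, TGACGTCA), and they occurred in 3.6166%, 13.3472% and 1.8482% of 35116 such windows. CHAC1 held a CARE match on the opposite strand, 209 bases before its start, which GENCODE v44 places in the untranslated part of an exon of 1 transcript other than the main one. The match is shown in capitals in its 30 bases (chr15:40953251-40953280, plus strand), above the CARE match 68 bases before the start of ASNS (chr7:97872458-97872487, minus strand), the asparagine synthetase gene through which ATF4 binding to such sites is widely known. ASNS itself fell in KD versus NT, as CHAC1 did, but was not called in OE versus EV, where CHAC1 rose. Its log2 fold changes were -1.12 and -0.02 (adjusted p = 2.15e-10 and 0.871). The search also took in ATF4 and the stress response genes DDIT3 and TRIB3, and it gave no CARE match for them.
CHAC1 site: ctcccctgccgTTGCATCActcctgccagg
ASNS site: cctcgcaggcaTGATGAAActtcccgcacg

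None of the 3 motifs was found in the windows of CTH, CHAC2 and GSTO2, which says only that these letters are not there. The upstream bases outside every annotated untranslated region are shown for CTH (chr1:70411018-70411217, plus strand), which moved with CHAC1, and for CHAC2 (chr2:53767554-53767803, plus strand), which moved the other way in the knockdown.
CTH upstream: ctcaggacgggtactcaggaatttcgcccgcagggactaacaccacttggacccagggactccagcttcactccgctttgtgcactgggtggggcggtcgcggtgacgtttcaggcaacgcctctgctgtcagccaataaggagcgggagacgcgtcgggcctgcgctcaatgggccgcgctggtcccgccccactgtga
CHAC2 upstream: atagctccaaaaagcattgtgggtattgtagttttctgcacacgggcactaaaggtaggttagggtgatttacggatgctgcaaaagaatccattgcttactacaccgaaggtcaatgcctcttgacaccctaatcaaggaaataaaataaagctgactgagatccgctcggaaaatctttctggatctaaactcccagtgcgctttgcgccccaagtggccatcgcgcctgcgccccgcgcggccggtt

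ARE matches lay 226 and 161 bases before the RefSeq start of GSTO1 (chr10:104254656-104254685 and chr10:104254721-104254750, plus strand). Another lay 83 bases before 1 of the starts of CBS on the opposite strand (chr21:43076441-43076470, minus strand). GENCODE v44 places these matches within the 2 genes, whose annotated spans begin further upstream. The near GSTO1 match falls in an exon of 1 transcript other than the main one. The far GSTO1 match and the CBS match fall in no exon. MGST1 had an ARE match only after 1 of its starts. The matches are in capitals.
GSTO1 far site: ggcggagggaTGACTGAGCatttataactt
GSTO1 near site: cgagatgcttTGACACAGCcccttaagatg
CBS site: ccggctctggGCGCGGTCAcgcggggcgct

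Knockdown of CPT1A moved 9 of the 10 genes, in both directions, while 57.5% of all tested genes moved. CTH, CBS, CHAC1, GSTO2 and MGST1 were lower in KD than in NT, and CHAC2, GSS, GSR and GSTO1 were higher, at a Benjamini-Hochberg adjusted p under 0.05 in edgeR's quasi-likelihood test over all 17230 genes. The same test called 28.4% of all genes lower and 29.1% higher, so the number of members that moved is read against a high background. At an adjusted p under 0.0001, 4 members were lower and 3 higher, against 12.8% and 16.4% of all genes (29.1% in either direction). Over-expression moved 6 members from EV against 52% of all genes, with CTH, CHAC1, GSS and GSR higher and CBS and GSTO1 lower, against 25.6% and 26.4%. At 0.0001 the same 4 were higher and CBS alone lower, against 11.6% and 10.3% (21.9% in either direction). The median log2 fold change of the members was -0.12 in the knockdown and 0.22 with over-expression, each against its control, and that of all genes was -0.02 in both.

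The members fell into several patterns over the 2 arms, which share no samples. CTH and CHAC1 were lower in KD and higher in OE, as were 3.71% of all genes. GSTO1 was higher in KD and lower in OE, as were 4.65%. GSS and GSR were higher in both and CBS was lower in both, patterns held by 13.7% and 12.7% of all genes. CHAC2, GSTO2 and MGST1 were called in KD versus NT alone, while 40.0% of all genes were called in a single arm, and GGCT was called in neither.

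**Figure D1:**
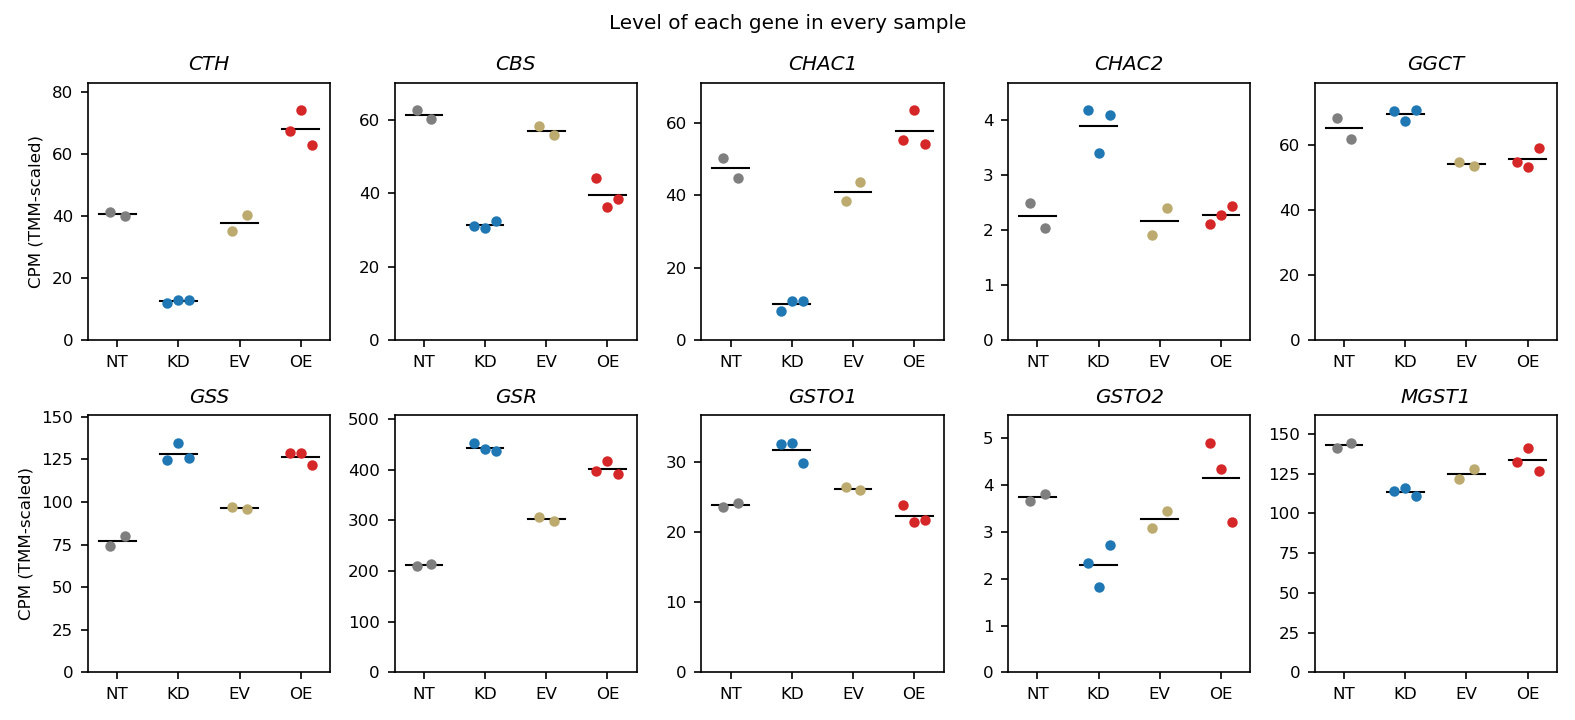
Level of each gene in every sample, in TMM-scaled CPM on linear axes from 0, with 1 point per library, a bar at the group mean, and the groups NT, KD, EV and OE along the x axis. The 3 KD libraries of CTH (11.99 to 13.02) and CHAC1 (8.01 to 10.8) lie below all others, while those of GSR (437 to 453) lie above all others.

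Both transsulfuration enzymes fell in the knockdown, and they moved in opposite directions in OE. CTH (chr1:70411218-70439851, plus strand) was at 41.4 and 40.0 CPM in NT, 11.99, 13.02 and 12.8 in KD, 35.1 and 40.3 in EV and 67.5, 74.2 and 62.9 in OE. KD libraries lay below and OE libraries above all the rest, and only EV and NT overlapped. CTH fell by 1.69 on the log2 scale in KD versus NT (SE 0.080, 3.22-fold lower, adjusted p = 9.34e-15) and rose by 0.85 in OE versus EV (SE 0.072, 1.81-fold, adjusted p = 1.12e-09). Between the controls it was not called, with a difference of -0.11 (EV minus NT, adjusted p = 0.306).

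CBS (chr21:43053191-43076943, minus strand) was at 62.7 and 60.2 CPM in NT, 31.2, 30.5 and 32.4 in KD, 58.4 and 55.8 in EV and 44.1, 36.3 and 38.5 in OE. Both engineered lines lay below both controls without overlap. The log2 fold change was -0.97 in KD versus NT (SE 0.068, 1.96-fold lower, adjusted p = 1.14e-11) and -0.53 in OE versus EV (SE 0.068, 1.44-fold lower, adjusted p = 6.67e-07). CBSL, a near-identical copy of CBS in the assembly, took 2.16% to 5.33% of the counts of the pair, and how reads were split between the copies is not given in the sources used here. Its own log2 fold change was -0.80 in the knockdown and -0.87 with over-expression (adjusted p = 0.0168 and 0.0113), the same direction as CBS in both arms.

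The enzymes of the 2 consecutive steps stood in different proportion in KD and OE. The ratio of CTH to CBS counts per kilobase of the main GENCODE transcript was 0.787 and 0.793 in NT, 0.459, 0.510 and 0.473 in KD, 0.717 and 0.861 in EV and 1.83, 2.44 and 1.95 in OE. The ratio was above 1 in the OE libraries alone and lowest in KD, and its absolute value depends on the transcript lengths used.

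**Figure D2:**
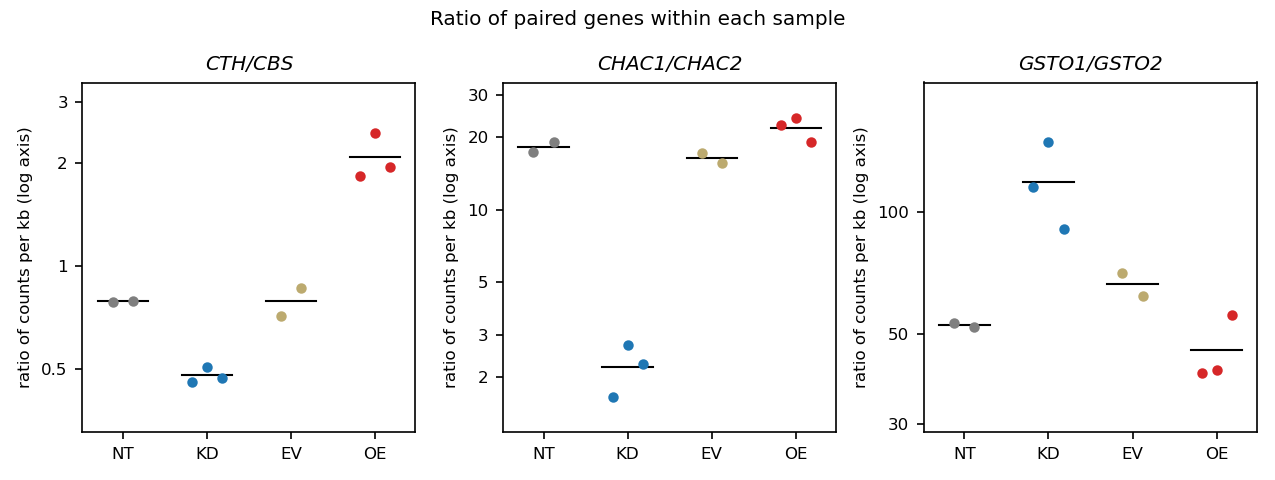
Ratio of paired genes within each library, as counts per kilobase of the main transcript on log axes, for CTH to CBS, CHAC1 to CHAC2 and GSTO1 to GSTO2, with 1 point per library and a bar at the group mean. The CHAC1 to CHAC2 ratio is 1.65 to 2.73 in KD and 15.7 to 24.2 in the other groups.

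The RNA levels of the 2 CHAC genes moved in opposite directions in the knockdown. CHAC1 (chr15:40952962-40956512, plus strand) is the inducible, fast enzyme and a known target of ATF4, the transcription factor of the integrated stress response. It was at 50.3 and 44.8 CPM in NT, 8.01, 10.8 and 10.8 in KD, 38.3 and 43.6 in EV and 55.5, 63.6 and 54.2 in OE. No groups overlapped, with KD far below and OE above the controls. CHAC1 had the largest change of the 10 genes in the knockdown, and decreased by 2.27 on the log2 scale (SE 0.098, 4.81-fold, adjusted p = 1.95e-15). In OE versus EV it rose by 0.49 (SE 0.087, 1.41-fold, adjusted p = 4.11e-05).

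CHAC2 (chr2:53767804-53775196, plus strand) is the slower enzyme, held to act at a steady rate. It was at 2.49 and 2.03 CPM in NT, 4.18, 3.39 and 4.08 in KD, 1.91 and 2.39 in EV and 2.11, 2.26 and 2.44 in OE, from 49 to 123 counts a library. KD lay above the other groups, which overlapped. The increase in KD versus NT was 0.78 (SE 0.17, 1.72-fold, adjusted p = 4.63e-04), and the value in OE versus EV was 0.08 (SE 0.19, adjusted p = 0.755). ASB3, on the opposite strand, spans all of CHAC2 and was at 0.159 to 0.619 CPM. Whether strand was used in counting is not given in the sources used here, and without it reads of the pair cannot be told apart.

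CHAC1 outnumbered CHAC2 per kilobase 17.4- and 19.1-fold in NT, 1.65-, 2.73- and 2.28-fold in KD, 17.3- and 15.7-fold in EV and 22.6-, 24.2- and 19.1-fold in OE. The ratio was lower in every KD library than in any other.

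GGCT (chr7:30496621-30504841, minus strand) was at 68.5 and 62.0 CPM in NT, 70.5, 67.4 and 70.9 in KD, 54.9 and 53.7 in EV and 55.0, 53.3 and 59.0 in OE. The groups overlapped within each arm, and the differences were 0.09 in the knockdown and 0.04 with over-expression (SE 0.058 and 0.060, adjusted p = 0.177 and 0.615). It was lower in EV than in NT (log2 fold change -0.27, SE 0.065, adjusted p = 0.00248), a call that was lost without NT 1 (-0.19, adjusted p = 0.0864). Another annotated protein-coding gene on the same strand shares 7765 bases with GGCT.

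**Figure D3:**
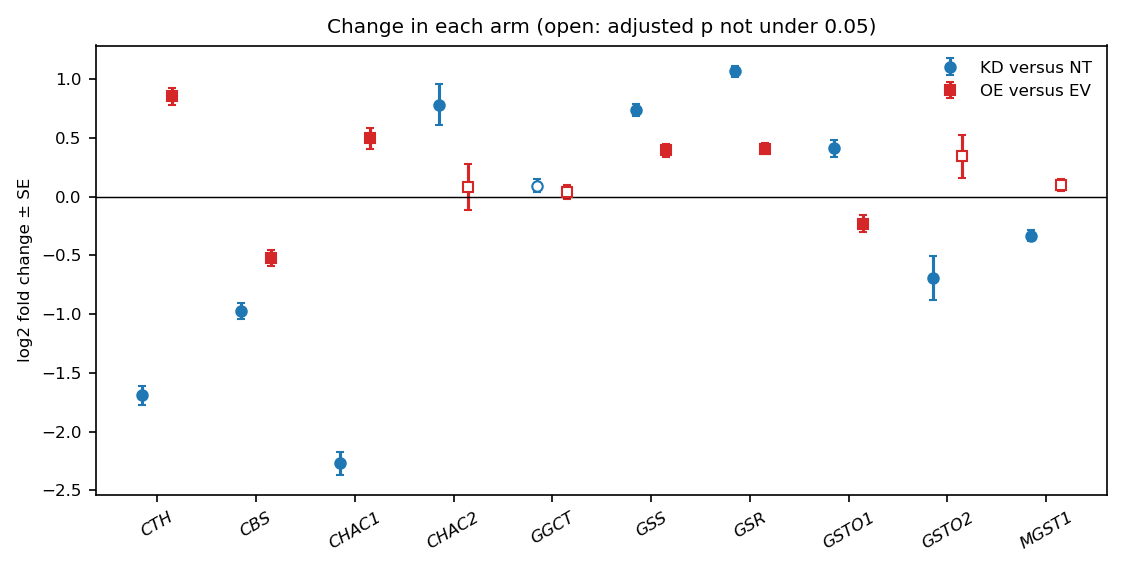
Log2 fold change of each gene with its standard error in KD versus NT (circles) and OE versus EV (squares), filled where the adjusted p was under 0.05. CTH and CHAC1 lie on opposite sides of 0 in the 2 arms, CBS lies below 0 in both, and GSS and GSR lie above 0 in both.

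The second step of synthesis and the reductase rose in both engineered lines. GSS (chr20:34928432-34956027, minus strand) was at 74.0 and 80.0 CPM in NT, 124, 134.8 and 125 in KD, 97.0 and 95.7 in EV and 128.9, 128.9 and 122 in OE. KD and OE overlapped each other and lay above both controls. The log2 fold change was 0.74 in KD versus NT (SE 0.053, 1.67-fold, adjusted p = 2.5e-11) and 0.39 in OE versus EV (SE 0.053, 1.31-fold, adjusted p = 1.19e-06).

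GSR (chr8:30678066-30727846, minus strand) was at 210.2 and 214 CPM in NT, 453, 440.5 and 437 in KD, 306 and 298 in EV and 396, 416 and 391 in OE. No groups overlapped, and the order from low to high was NT, EV, OE and KD. GSR rose by 1.06 in KD versus NT (SE 0.046, 2.09-fold, adjusted p = 2.14e-15) and by 0.41 in OE versus EV (SE 0.045, 1.33-fold, adjusted p = 7.49e-08). Both genes were also higher in EV than in NT, GSS by 0.32 and GSR by 0.51 (adjusted p = 1.33e-04 and 2.8e-08). In the 11 tested genes within 1 Mb of GSR 0 rose and 3 fell in the knockdown (median log2 fold change 0.08), against 29.1% and 28.4% of all genes.

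The transferases of the omega class lie side by side on chromosome 10 and moved in opposite directions in the knockdown. GSTO1 (chr10:104235356-104267459, plus strand), which reduces dehydroascorbate and protein mixed disulfides, was at 23.7 and 24.1 CPM in NT, 32.6, 32.8 and 29.9 in KD, 26.44 and 26.003 in EV and 23.8, 21.5 and 21.7 in OE. KD lay above the other groups, and OE overlapped NT. GSTO1 rose by 0.41 in KD versus NT (SE 0.071, 1.33-fold, adjusted p = 2.64e-05). In OE versus EV the log2 fold change was -0.23 (SE 0.073, 1.17-fold lower, adjusted p = 0.0103), a call that was lost without EV 1 (-0.20, adjusted p = 0.0922).

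GSTO2 (chr10:104268873-104304950, plus strand), with high dehydroascorbate reductase activity, had few reads, 46 to 123 counts a library. It was at 3.66 and 3.81 CPM in NT, 2.34, 1.81 and 2.72 in KD, 3.08 and 3.45 in EV and 4.91, 4.34 and 3.21 in OE. KD lay below the other groups, and OE ranged from below to above the NT libraries. GSTO2 fell by 0.69 in KD versus NT (SE 0.19, 1.62-fold lower, adjusted p = 0.00325). The value in OE versus EV was 0.34 (SE 0.18, adjusted p = 0.12), and without OE 3 it was 0.51 with an adjusted p of 0.023.

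GSTO1 exceeded GSTO2 per kilobase 53.4- and 52.2-fold in NT, 115-, 149- and 90.9-fold in KD, 70.9- and 62.3-fold in EV and 40.1-, 40.8- and 55.9-fold in OE. KD had the highest ratios, and those of OE overlapped NT. The size of these ratios depends on the transcript lengths used, 0.813 kb for GSTO1 and 6.715 kb for GSTO2. Without scaling by length, the ratio of counts was 6.46 and 6.32 in NT.

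**Figure D4:**
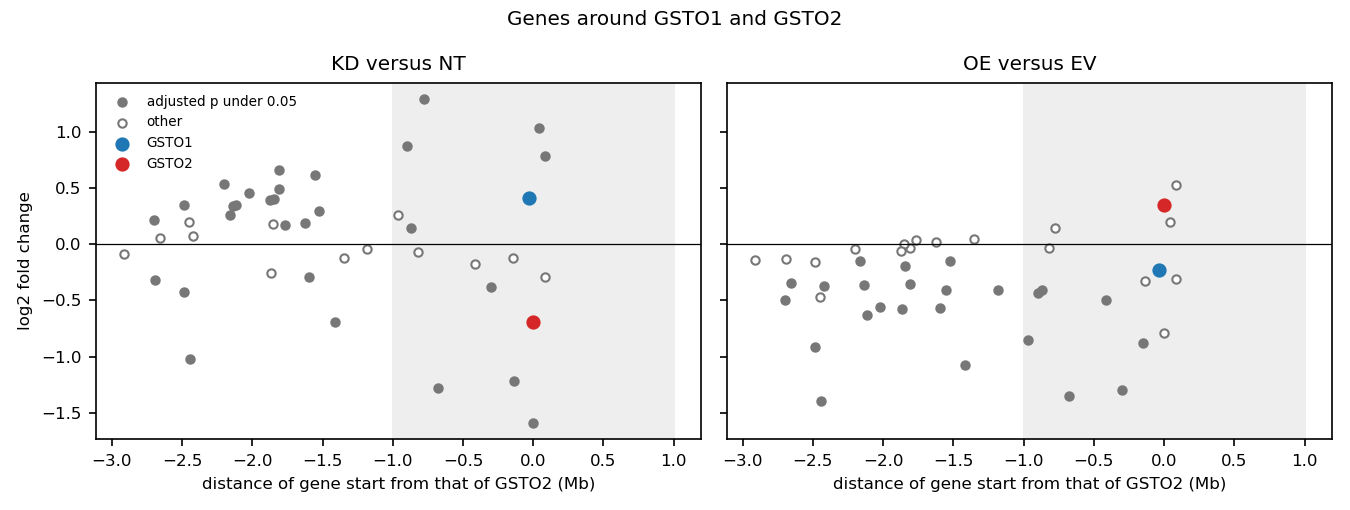
Log2 fold change of tested genes around GSTO1 and GSTO2 by the distance of their start from that of GSTO2 in Mb. The panels are KD versus NT (left) and OE versus EV (right), with the 1 Mb on either side shaded. Other genes are filled where the adjusted p was under 0.05. GSTO1 and GSTO2 are filled whatever their adjusted p, which for GSTO2 in OE versus EV was 0.12. With over-expression, 8 of the 15 genes within 1 Mb of GSTO2 fell and 0 rose (median -0.41), against 26.4% and 25.6% of all genes.

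Of the 15 tested genes within 1 Mb of GSTO2, 0 rose and 8 fell in OE from EV, among them GSTO1, with a median log2 fold change of -0.41, while GSTO2 itself was at 0.34 and 26.4% of all genes were lower. The same neighbours split in the knockdown, where 6 rose and 4 fell (median -0.07). The part of the region in the lower GSTO1 level of OE was not tested. Around CTH the 6 neighbours had medians of -0.17 in KD and -0.21 in OE against their controls, and around CHAC1 the 42 neighbours had medians of 0.22 and 0.13.

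MGST1 (chr12:16347142-16609259, plus strand), a membrane enzyme with transferase and peroxidase activity, had the highest level per kilobase of the 10 genes in NT, at 155 CPM per kilobase. It was at 141 and 145 CPM in NT, 114, 116 and 111 in KD, 122 and 128 in EV and 132.4, 141 and 127 in OE. KD lay below the rest, and EV overlapped OE. MGST1 fell by 0.33 in KD versus NT (SE 0.050, 1.26-fold lower, adjusted p = 4.19e-06). In OE versus EV it was at 0.10 (SE 0.051, adjusted p = 0.117). It was lower in EV than in NT (log2 fold change -0.20, adjusted p = 0.00742), a call that was lost without NT 2 or EV 1 (adjusted p = 0.0706 and 0.0915).

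The study compared OE with KD after setting each against its own control, which is the interaction of the 2 arms. CTH, CHAC1 and GSTO2 were named by the study from this contrast, so their values of 2.54, 2.76 and 1.04 on the log2 scale are given as a description. In the same contrast 5 members were higher (CTH, CBS, CHAC1, GSTO2 and MGST1) and 4 lower (CHAC2, GSS, GSR and GSTO1), against 20.3% and 24% of all genes and 44.3% in either direction. At 0.0001, 3 were higher and 2 lower, against 6.94% and 8.98% (15.9% in either direction). The 5 include CTH, CHAC1 and GSTO2 and the 3 include CTH and CHAC1, so these counts are a description too. GSR differed by -0.66 (SE 0.064, adjusted p = 1.13e-08), GSTO1 by -0.64 (SE 0.10, adjusted p = 1.55e-05) and GSS by -0.34 (SE 0.074, adjusted p = 5.62e-04). MGST1 differed by 0.43 (SE 0.071, adjusted p = 2.92e-05) and CBS by 0.45 (SE 0.096, adjusted p = 5.48e-04). These are differences between responses, since CBS was lower, and GSS and GSR higher, than the control in both lines. The value of CHAC2 was -0.70 (SE 0.26, adjusted p = 0.0338), and its call was lost in the DESeq2 Wald test (adjusted p = 0.0995) and without NT 2, KD 1, KD 3, EV 2 or OE 1 (adjusted p from 0.0649 to 0.195).

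Set side by side without the controls, OE had more CTH (2.43 on the log2 scale, SE 0.071, 5.40-fold) and more CHAC1 (2.55, SE 0.090, 5.84-fold) than KD, with adjusted p of 1.24e-18 and 5.71e-17. The study named CTH, CHAC1 and GSTO2 for a difference between OE and KD in these libraries. Their values here, and the counts that hold them, are therefore a description. OE libraries of CTH, CBS, CHAC1, GSTO2 and MGST1 lay above, and those of CHAC2, GGCT, GSR and GSTO1 below, all KD libraries, and the same 9 genes were called, against 29.2% of all genes higher, 30.6% lower and 59.8% in either direction. At 0.0001, 3 were higher and 2 lower in OE, against 15.5% and 16.4% (31.9% in either direction). GSS did not separate the 2 lines (-0.02, SE 0.046, adjusted p = 0.742), except that scaling by library size alone gave -0.15 with an adjusted p of 0.00437. The control lines differed in 4 members, GSS and GSR higher and GGCT and MGST1 lower in EV than in NT, against 18.5% and 15.5% of all genes and 34.1% in either direction. At 0.0001 GSR alone was higher and 0 were lower, against 5.25% and 2.91% (8.16% in either direction). This comparison and the interaction use the same control samples as the arms.

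Of 65 other genes of cysteine and glutathione metabolism, 49 were tested. The knockdown raised 18 and lowered 15, and over-expression raised 11 and lowered 16, with medians of 0.07 and -0.05 on the log2 scale. These counts and those of the smaller lists below are to be read against the shares of all genes. The shares were 29.1% higher and 28.4% lower in KD, and 25.6% higher and 26.4% lower in OE.

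Of 12 tested genes of the methionine cycle and cysteine supply, 7 fell and 2 rose in KD (median -0.40), and 3 rose and 4 fell in OE. SLC7A11, the cystine importer, was at 346 and 332 CPM in NT, 86.2, 79.1 and 99.97 in KD, 215 and 231 in EV and 151, 163 and 165 in OE. It was lower than the control in both lines (log2 fold changes -1.94 in KD and -0.48 in OE, SE 0.065 each, adjusted p = 2.76e-17 and 1.3e-06), as CBS was. SLC3A2, the partner chain of SLC7A11 and of other amino acid transporters, instead followed CTH, at -0.88 in KD and 0.51 in OE against the controls (adjusted p = 5.52e-12 and 1.5e-07). SLC1A4, a carrier of small neutral amino acids, was at -0.95 and 0.72 (adjusted p = 3.06e-10 and 2.46e-08), and SLC1A5, a glutamine carrier, at -0.59 and 0.40 (adjusted p = 1.35e-09 and 1.1e-06).

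Of 6 tested genes of glutathione synthesis and export, 5 rose and 0 fell in KD (median 0.47), and 1 rose and 2 fell in OE. Between the controls 5 were higher and 0 lower in EV than in NT (median 0.57), against 18.5% and 15.5% of all genes. GCLC, the catalytic subunit of glutamate-cysteine ligase, was at 32.7 and 30.2 CPM in NT, 36.2, 34.01 and 36.5 in KD, 48.0 and 51.5 in EV and 34.4, 30.5 and 34.8 in OE. EV stood above the other groups, with log2 fold changes of 0.18 in the knockdown, -0.58 with over-expression and 0.66 in EV versus NT (adjusted p = 0.0329, 1.57e-07 and 2.86e-07). GCLM, its modifier subunit, was at 28.3 and 25.8 CPM in NT, 38.8, 32.3 and 36.1 in KD, 27.1 and 27.7 in EV and 25.3, 25.8 and 28.7 in OE. It rose by 0.40 in KD versus NT (adjusted p = 1.13e-04) and was at -0.04 in OE versus EV (adjusted p = 0.681). The exporters ABCC1 and ABCC4 were 0.75 and 0.91 higher in KD than in NT and 1.15 and 1.17 higher in EV than in NT. In OE versus EV, ABCC1 was at 0.21 and ABCC4 at -0.41 (adjusted p = 5.51e-04 and 1.06e-07).

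**Figure D5:**
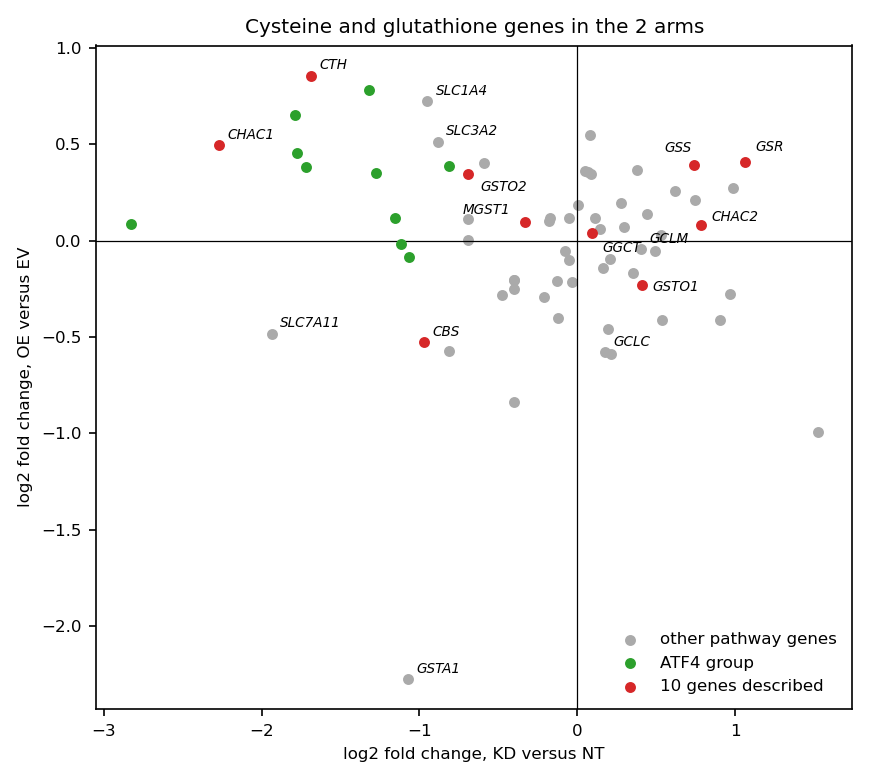
Log2 fold change in OE versus EV against that in KD versus NT, with 1 point per gene for the 10 genes described (red), the 49 other pathway genes (grey) and 10 genes of the ATF4 group (green). CTH, CHAC1, SLC3A2 and SLC1A4 lie at upper left, CBS, SLC7A11 and GSTA1 at lower left, and GSS and GSR at upper right.

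Of 7 tested peroxidase and glutaredoxin genes 4 rose and 1 fell in KD, and 2 rose and 1 fell in OE. GLRX, a glutaredoxin, was at 1.77 and 2.66 CPM in NT, 4.44, 3.98 and 4.51 in KD, 1.29 and 1.54 in EV and 1.36, 1.18 and 0.967 in OE, and was 0.97 higher in KD than in NT (adjusted p = 7.42e-05). Among 9 tested genes of other transferases 2 rose and 3 fell in KD, and 2 rose and 5 fell in OE. GSTA1, an alpha-class transferase, was at 49.6 and 50.2 CPM in NT, 20.8, 27.97 and 22.4 in KD, 16.5 and 18.4 in EV and 3.27, 3.802 and 3.75 in OE. No groups overlapped, and its log2 fold change was -1.07 in the knockdown, -2.27 with over-expression and -1.52 in EV versus NT (adjusted p = 1.85e-10, 8.92e-13 and 3.49e-11). GSTA2, a close paralog at 0.120 to 1.07 CPM, could have shared reads with it. Of 7 tested gamma-glutamyl and dipeptide breakdown genes 3 rose and 1 fell in KD, and 1 rose and 3 fell in OE. Of 8 tested genes of cysteine breakdown and sulfide 2 rose and 3 fell in KD, and 2 rose and 1 fell in OE.

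CTH and CHAC1 moved with the ATF4 group, 10 genes of the integrated stress response and amino acid supply. All 10 of these were lower in KD than in NT (median -1.30), and 6 were higher and 0 lower in OE than in EV (median 0.37), against 28.4% of all genes lower in KD and 25.6% higher in OE. Between the controls 0 were higher and 6 lower in EV than in NT (median -0.30), against 18.5% and 15.5% of all genes. The ATF4 levels of OE lay around those of NT. ATF4 itself was at 1174 and 1160.4 CPM in NT, 464 to 508 in KD, 904 and 891 in EV and 1101 to 1219 in OE, with log2 fold changes of -1.27 in KD versus NT and 0.35 in OE versus EV (adjusted p = 3.12e-16 and 3.47e-06). DDIT3, which encodes CHOP, had the largest change of the group in KD, at -2.83, but was at 0.09 in OE versus EV (adjusted p = 0.343). CEBPG, PSAT1 and ASNS were not called in OE versus EV either, at -0.08, 0.12 and -0.02 (adjusted p = 0.251, 0.057 and 0.871). TRIB3, ATF3, SESN2 and CEBPB were at -1.79, -1.77, -1.72 and -1.32 in KD versus NT and at 0.65, 0.45, 0.38 and 0.78 in OE versus EV. Protein levels and ATF4 binding were not analysed here.

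The likeness of other genes to CTH, CHAC1 and GSTO2 was ranked by Pearson's r of log2 CPM over the 10 samples, among 12717 genes with an average log2 CPM of at least 1. The points share 4 group means, so the values are a description. SLC6A9 (a glycine transporter), ADM2 and DDIT4 were most like CTH, with r of 0.999, 0.997 and 0.997. ARHGEF2, SESN2 and VEGFA were most like CHAC1, with r of 0.995, 0.995 and 0.994. TMC3-AS1, ANKRA2 and HIST2H2BD were most like GSTO2, with lower values of 0.961, 0.952 and 0.937.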

How the data were processed

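RNA was sequenced from 10 samples of LNCaP-C4-2 cells (NT, KD, EV and OE), grouped by the sample titles. The authors trimmed read pairs with BBDuk and mapped and counted them with STAR 2.6.0a on an Ensembl annotation of hg38, and they deposited counts, whole numbers per gene symbol. Strand setting and the treatment of reads that match several genes are not given in the sources used here. No normalization had been applied, and 0 columns were left out.

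After filterByExpr (17230 genes kept) and TMM scaling, a model of 1 mean per group was fitted to all 10 samples. Its contrasts were tested by the quasi-likelihood F test of edgeR 4.0.16 (R 4.3.3), with Benjamini-Hochberg adjustment over the tested genes. The SE is the absolute log2 fold change divided by the square root of F. Calls were made at an adjusted p under 0.05 and also counted at 0.0001, the limit of the study. The common biological coefficient of variation was 0.0446, and 3 counts correspond to 0.0995 to 0.136 CPM. Lengths and positions came from GENCODE v44 (GRCh38), which placed 14127 of the tested genes. Promoters came from RefSeq (GRCh38.p14). The test was checked on simulated data.

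Same-numbered samples of different groups had a mean residual correlation of -0.00282 over 13 pairs, against 0.00156 over 24 pairs with different numbers. The replicate number was therefore not used as a pairing in the main fit. A mean over all pairs cannot show whether only some numbers share a batch. The members, lists and motifs were chosen with earlier results of these data known. All members were named, as were GCLC, GCLM and SLC7A11 and, of each list, up to 5 called genes a comparison whose absolute log2 fold change and average log2 CPM both reached 1. CBSL stands beside CBS. ASB3, GSTA2, ASNS, CEBPG, PSAT1 and AHCY were added after values were seen. Each result was recomputed with scaling by DESeq2 size factors or by library size alone, without the filter or with a minimum of 10 counts per sample, with the Wald test of DESeq2 1.42.0 or voom in limma 3.58.1, with a replicate block, with separate fits per arm, at the limit of 0.0001, and without each sample in turn.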

Additional observations from a re-analysis of the deposited data

How the results depend on the processing

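Of 920 values of single members recomputed under the alternatives, 878 kept their direction and side of the threshold, 24 lost the call, 8 gained it and 10 changed sign. No member changed direction in KD versus NT, and 5 lower and 4 higher members were called there without each sample in turn. Directions turned only in values not past the threshold. With scaling by library size alone, OE versus EV was -0.017 for CHAC2, -0.059 for GGCT and -0.0022 for MGST1. Leaving out each sample in turn, CHAC2 ranged from -0.24 to 0.086 in EV versus NT (above 0 without NT 1 or EV 1) and from -0.060 to 0.25 in OE versus EV (below 0 without EV 1). GGCT ranged from -0.0042 (without OE 3) to 0.072 in OE versus EV and from -0.13 to 0.016 (without NT 2) in the interaction. GSS ranged from -0.035 to 0.017 in OE versus KD without controls (above 0 without KD 2 or OE 3). At an adjusted p under 0.0001, OE versus EV had 1 member lower, the interaction 3 higher and 2 lower, EV versus NT 1 higher and 0 lower, and OE versus KD without controls 3 higher and 2 lower. Leaving out each sample in turn gave 1 to 3 members lower in EV versus NT, 1 to 2 lower and 4 to 6 higher in OE versus EV (6 without OE 3, when GSTO2 and MGST1 were also called), and 3 to 4 lower in the interaction. The causes of these shifts were not tested. The lone sample left in a control group was assumed to vary like the others.

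With the replicate number as a block, MGST1 was called in OE versus EV (0.12, adjusted p = 0.0334) and CHAC1 in EV versus NT (-0.22, adjusted p = 0.0483), and no other member's call changed. The block gave 4 members higher and 5 lower in KD versus NT, 5 and 2 in OE versus EV, and 2 and 3 in EV versus NT. The shares of all genes called with the block, or without single samples, were not computed, so such counts have no background of their own. Over all tested genes, same-numbered samples had a mean residual r of -0.00282 (from -0.0443 to 0.0783). KD 2 and OE 2, which both stood apart, were each the highest of their group for AHCY. Among the members they were each the highest for CTH and MGST1 and the lowest for CBS and GGCT. They shared no extreme for the other members. In the ATF4 group they were each the highest for ATF4, TRIB3, ATF3, SESN2, PSAT1 and PHGDH and the lowest for CEBPG. DDIT3, CEBPB and ASNS shared no extreme. For SLC7A11 KD 2 was the lowest of its group and OE 2 was not. Whether samples with the same number share a batch in part of the genes was not tested. CHAC1 was also called in EV versus NT with no filter (adjusted p = 0.0465) and without KD 1 or KD 2 (0.0397 and 0.0288), and MGST1 in OE versus EV without OE 3 (0.13, adjusted p = 0.047). Control groups of 2 samples and counts of 46 to 123 a library limit CHAC2 and GSTO2 most.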

Other observations

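Several genes of the pathway lists outside the rule for named genes also moved, and they were picked here after their values were seen. GPX1 and GPX4, glutathione peroxidases for hydrogen peroxide and for lipid peroxides, were higher in OE than in EV by 0.34 and 0.35 on the log2 scale (adjusted p = 5.48e-06 and 5.77e-06) and were at 0.09 and 0.07 in KD versus NT (adjusted p = 0.147 and 0.298). MTR, the methionine synthase that takes homocysteine away from CBS, was at 0.22 in KD versus NT and -0.59 in OE versus EV (adjusted p = 0.00945 and 2.41e-07). The KD and NT libraries of MTR overlapped, with KD 2 at 77.4 CPM between the NT libraries at 75.7 and 78.1. MGST2, a relative of MGST1, was higher than the control in both lines, by 0.38 in KD and 0.37 in OE (adjusted p = 6.17e-06 and 1.58e-05). SUOX, sulfite oxidase, was also higher in both, by 0.62 and 0.25 (adjusted p = 2.11e-09 and 4.85e-04), and CSAD, which makes hypotaurine from a product of cysteine oxidation, was lower in both, at -0.81 and -0.57 (adjusted p = 5.31e-08 and 2.09e-05).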
